A study of Mus musculus with 12 samples.

Results

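The genes described here encode the cytoplasmic translation initiation factors and the aminoacyl-tRNA synthetases of cytotoxic T lymphocytes (CTL). They are the rows of the expression table whose symbol begins with Eif and a digit, or names a synthetase (1 letter for the amino acid followed by ars, with an optional 1 or 2, and Farsa, Farsb and Eprs). The 4 eIF2 kinases, whose symbols begin with Eif2ak, were left out, and a mean of at least 1 FPKM over the 12 libraries was required. The table holds 13283 genes, of which 93 matched the pattern and 88 were members after the 4 kinases and Eif3j2, at a mean of 0.371 FPKM, had been left out. The members just inside the limit were the pseudogenes Eif1-ps1, Eif3s6-ps1 and Eif5al3-ps, with means of 1.09, 1.12 and 1.39 FPKM, and the mitochondrial synthetase gene Wars2, with 1.45 FPKM. FPKM scales the fragments of a gene by its exon length and by the size of the library. The length counts all annotated exons of a gene, so a gene whose mRNA uses only part of them is listed too low. Values are therefore only roughly comparable between genes.

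The CTL came from female mice aged 11 to 27 weeks with Cre under control of the granzyme B promoter (GzmB cre+), a transgene that all 4 groups share. The WT CTL carried the Cre alone, and the FOXO1-GFP KO CTL also carried the floxed FOXO1-GFP allele (FOXO1-GFPfl/fl), which the Cre deletes once CTL express granzyme B. WT cells were sorted as live CD8+ cells and FOXO1-GFP KO cells as live CD8+ cells that had lost GFP, so the genotype comparison also compares these gates. Cell suspensions from lymph nodes or spleens were activated through CD3 and CD28 for 48 h and then expanded. IL-2 at 20 ng/mL and IL-12 at 2 ng/mL were present in both steps, and the sort came after the culture. For the last 24 h cells were given IC87114 at 10 µM, which blocks the p110δ form of PI3K (PI3Kdi), or vehicle. The 4 groups, called WT, WT+PI3Kdi, FOXO1-GFP KO and FOXO1-GFP KO+PI3Kdi, each held 3 libraries.

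Initiation factors bring the small ribosomal subunit, the initiator methionyl-tRNA and the mRNA together: eIF4F binds the 5′ cap and unwinds the leader, eIF2 delivers the initiator tRNA as a GTP complex that eIF2B recharges, and eIF3 holds the parts in place. The synthetases charge each tRNA with its amino acid, in the cytosol for nuclear-encoded proteins and in mitochondria for the proteins of the mitochondrial genome. Activated T cells make protein at a high rate. PI3K signalling can feed mTORC1, which releases eIF4E from its 4E-binding proteins and raises the transcription factor ATF4, a known activator of many cytosolic synthetase genes. For CD8 T cells, however, the study cites earlier work in which mTORC1 stayed active without p110δ activity. The activity of mTORC1 was not measured here, and a route from p110δ through mTORC1 to these genes was not tested.

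The libraries differed in depth from 12900000 to 48000000 reads, as recovered from the steps of the FPKM values. Foxo1 was at 5.77 to 10.5 FPKM in the 6 libraries of WT genotype and at 0.58 to 1.75 FPKM in the 6 of FOXO1-GFP KO genotype. All 9 CD8 T cell markers were present, and their summed level was between 13134 and 19353 FPKM. Libraries WT+PI3Kdi 1, WT+PI3Kdi 2 and FOXO1-GFP KO 1 stood apart, with the non-polyadenylated 7SK RNA (Rn7sk) at 62.2, 92.0 and 118 FPKM against 1.97 to 7.33 FPKM in the other 9. Within each genotype, libraries with the same replicate number deviated together from their group means (r = 0.596 to 0.838 for the 3 WT pairs and 0.594 to 0.780 for the 3 FOXO1-GFP KO pairs, across genes). Inhibitor effects are therefore given from a fit with and without these pairs as a block, called the blocked and the unblocked fit.

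The promoters of 4 members are shown, chosen among members whose mRNA passed the test in a blocked inhibitor comparison below. All 4 hold a motif that other members share. Each is the 250 bases before the gene start in RefSeq (GRCm38.p6), written 5′ to 3′ on the gene's strand: Aars at chr8:111033592-111033841 (plus strand), Tars at chr15:11399659-11399908 (minus), Eif3f at chr7:108934165-108934414 (plus) and Eif3k at chr7:28981889-28982138 (minus). Capitals mark CACGTG, the E-box, and TGATGNAAN, the C/EBP-ATF response element that ATF4 can bind, searched on both strands. Farsb, which fell, also passed and holds an E-box, beginning at -39 from the gene start, but its promoter is not shown.
Aars: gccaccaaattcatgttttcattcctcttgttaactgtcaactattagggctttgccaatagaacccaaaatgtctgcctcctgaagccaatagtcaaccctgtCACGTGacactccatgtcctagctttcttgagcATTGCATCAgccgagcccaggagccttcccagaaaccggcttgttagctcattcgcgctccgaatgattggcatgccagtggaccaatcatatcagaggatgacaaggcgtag
Tars: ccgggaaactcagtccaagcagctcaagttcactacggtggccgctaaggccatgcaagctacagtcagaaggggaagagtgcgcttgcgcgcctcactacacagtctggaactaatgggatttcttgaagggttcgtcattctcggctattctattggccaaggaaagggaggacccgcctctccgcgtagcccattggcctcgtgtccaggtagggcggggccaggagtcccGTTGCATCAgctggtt
Eif3f: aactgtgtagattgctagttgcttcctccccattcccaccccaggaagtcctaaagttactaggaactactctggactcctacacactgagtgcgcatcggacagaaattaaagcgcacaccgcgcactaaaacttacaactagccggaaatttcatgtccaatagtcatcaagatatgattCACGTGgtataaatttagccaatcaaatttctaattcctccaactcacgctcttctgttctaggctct
Eif3k: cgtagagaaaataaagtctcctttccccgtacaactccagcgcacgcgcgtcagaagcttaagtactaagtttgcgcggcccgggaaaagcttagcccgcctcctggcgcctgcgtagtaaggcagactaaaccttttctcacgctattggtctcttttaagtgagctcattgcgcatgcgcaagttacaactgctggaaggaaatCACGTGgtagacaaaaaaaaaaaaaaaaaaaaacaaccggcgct
RefSeq promoters matched 65 of the 88 members by symbol. TGATGNAAN was found in 3 of 8 promoters of the cytosolic synthetases that ATF4 is known to induce (Aars, Gars and Tars), in 0 of 5 of the other cytosolic synthetases, in 0 of 14 mitochondrial synthetases and in 1 of 38 initiation factor promoters (Eif2s3x). It was found in 3.44% of all 32851 promoters of this length and in 1.92% of the 9623 that belong to genes in the expression table. CACGTG was found in 10 of 65 member promoters (15.4%) against 8.42% of promoters of genes in the table, and 7 of these 10 belonged to initiation factors. GTAAACA, a core FOXO motif, was found in the promoters of the mitochondrial synthetases Iars2 and Vars2 alone among the members, against 2.09% of promoters of genes in the table. These matches describe letters in the sequence, not bound sites.

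The levels of the members spanned more than 2 orders of magnitude (plot of levels by class). Eif5a, an elongation and termination factor that needs hypusine, was the most abundant at a mean of 656 FPKM, and ranged from 578 to 740 FPKM over the 12 libraries. Next came Eif3h (324 FPKM), Eif4a1, the helicase of eIF4F (300 FPKM; 299.8), and Eif1, which guards start codon choice (288 FPKM). The summed level of the initiation factors was 0.939% to 1.24% of all FPKM in a library, and that of the cytosolic synthetases 0.196% to 0.294%.

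**Figure D1:**
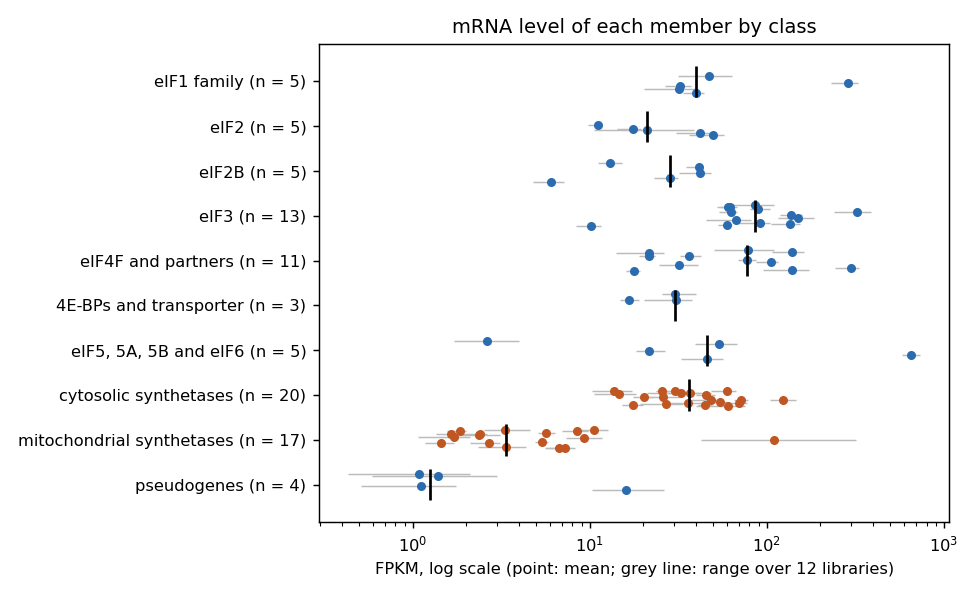
Mean FPKM of the 88 members on a log axis, grouped by class, with a grey line from the lowest to the highest of the 12 libraries and a black bar at the class median. Mitochondrial synthetases have a median of 3.37 FPKM and cytosolic synthetases 36.4 FPKM, and Lars2, at 110 FPKM, stands apart from its class.

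Subunits of one complex were not at one FPKM level, and the part of annotated exon length in these differences was not tested. That length was 6520 bases for Eif2b3 and 1885 for Eif2b2, for example. Of the 13 eIF3 genes, 12 had means from 59.8 FPKM (Eif3d) to 324 FPKM (Eif3h), while Eif3j1, for a loosely bound subunit, was at 10.2 FPKM. In eIF2B, the guanine nucleotide exchange factor of eIF2, means ran from 6.05 FPKM (Eif2b3) to 42.1 FPKM (Eif2b2), and the catalytic subunit gene Eif2b5 was at 41.4 FPKM. In eIF2 the α subunit gene Eif2s1 was at 49.7 FPKM, the β subunit gene Eif2s2 at 42.0 FPKM and the X-linked γ subunit gene Eif2s3x at 21.2 FPKM. The cap-binding protein gene Eif4e was at 21.6 FPKM, below its scaffold Eif4g1 (78.8 FPKM), its helicases Eif4a1 and Eif4a2 (36.6 FPKM) and the helicase cofactor Eif4b (140 FPKM; 139.7). Its repressors Eif4ebp1 and Eif4ebp2 were at 30.7 and 30.5 FPKM, and Eif4ebp3 is not a row of the table.

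Cytosolic synthetase genes lay between 13.8 FPKM (Cars) and 123 FPKM (Gars), and those for mitochondrial forms between 1.45 FPKM (Wars2) and 10.6 FPKM (Iars2), with Lars2 as the exception. Gars and Kars serve both compartments and are counted as cytosolic. Over the 12 libraries the median SD of the log2 level was 0.163 for members and 0.224 for all genes averaging 1 FPKM or more. Those genes were not matched to the members in level, and the median of the member means was 32.0 FPKM. The smaller SD is therefore not shown to be particular to the members. For members and those genes alike, most of the variation lay between the pairs of a genotype, at a median of 65.3% of the sum of squares for members and 65.1% for those genes. The inhibitor accounted for a median of 13.1% in members and 10.4% in those genes.

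Leaving aside Lars2 and the pseudogenes, Eif2s3x varied most between pairs. It was at 38.99, 18.05 and 14.2 FPKM in WT, at 35.08, 16.26 and 15.8 in WT+PI3Kdi, at 24.76, 28.92 and 11.75 in FOXO1-GFP KO, and at 21.07, 18.79 and 10.57 in FOXO1-GFP KO+PI3Kdi. Replicate 1 of WT was more than 2-fold above replicate 3 both with and without inhibitor, and replicate 3 of FOXO1-GFP KO was the lowest in both groups. Eif4g1, the eIF4F scaffold, had the same order in WT CTL, at 109.39, 73.39 and 62.82 FPKM in WT and 104.87, 68.17 and 67.19 in WT+PI3Kdi. Across the 84 members that are not pseudogenes, the difference between the WT pairs 1 and 3 rose with exon length (Spearman rho = 0.409, and 0.591 over all genes averaging 1 FPKM or more). This was the largest rho among members. It was 0.304 for WT pairs 1 and 2 and 0.342 for WT pairs 2 and 3. For FOXO1-GFP KO it was -0.123 for pairs 1 and 2, 0.209 for 1 and 3, and 0.167 for 2 and 3. All these rho values are descriptions over genes of the same libraries, and the part of transcript length in the pair differences was not tested.

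The first comparison asked how 24 h of PI3Kdi moved these genes in WT CTL. In the unblocked limma fit 0 of 88 members were called at an adjusted p under 0.05 and a change over 1.5-fold, where 13 of 13283 genes (0.0979%) were, and 2 members (Wars and Eif4e3) had an unadjusted p under 0.05 against 5.14% of genes. limma voom on estimated reads called 0 as well, with 2 at an unadjusted p under 0.05. In the blocked fit 0 members were called (2.57% of all genes were), and 6 members (6.82%) passed an adjusted p of 0.05 at any size, against 984 genes or 7.41%. Of these 6, 2 were higher (3.88% of all genes were) and 4 lower (3.53%), and 27 members had an unadjusted p under 0.05 against 23.7% of genes. The share of members that passed was thus near that of all genes. The 95% intervals of 83 of 88 members in the blocked fit lay within 1.5-fold either way, against 81.1% of all genes. Of genes averaging 1 FPKM or more, 89.5% did. These shares of intervals, here and below, were not matched to the members in level. The 5 other members were Lars2 and the 4 pseudogenes.

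All 6 members that passed in WT CTL, apart from the cap-binding protein Eif4e3, were cytosolic synthetases. Wars, the tryptophanyl-tRNA synthetase (chr12:108860030-108894174, minus strand), a gene that interferons are known to induce, was at 41.18, 40.01 and 40.69 FPKM in WT and at 47.61, 45.29 and 50.98 FPKM in WT+PI3Kdi. Every inhibitor library was above every WT library, and Wars rose by 0.24 ± 0.04 (log2, SE; adjusted p = 0.00655 blocked, 0.537 unblocked). Eif4e3, a cap-binding relative of eIF4E (chr6:99625135-99666771, minus strand), was at 33.57, 33.28 and 29.45 FPKM in WT and at 40.98, 39.99 and 37.36 FPKM in WT+PI3Kdi. These groups did not overlap either, and Eif4e3 rose by 0.30 ± 0.05 (adjusted p = 0.00585 blocked, 0.595 unblocked).

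The synthetases that passed downwards in WT CTL charge asparagine (Nars), cysteine (Cars), tyrosine (Yars) and alanine (Aars). Nars was at 70.75, 70.76 and 60.17 FPKM in WT and at 57.29, 58.14 and 49.08 FPKM in WT+PI3Kdi. All 3 pairs were lower with the inhibitor, the groups did not overlap, and Nars fell by 0.29 on the log2 scale (SE 0.07, adjusted p = 0.0352 blocked). Aars was at 29.9, 32.31 and 28.79 FPKM in WT and 26.07, 28.47 and 26.24 FPKM in WT+PI3Kdi, again without overlap, and fell by 0.17 (SE 0.04, adjusted p = 0.0265 blocked). Cars fell by 0.25 and Yars by 0.21, each with an adjusted p of 0.0354 in the blocked fit. In the unblocked fit the adjusted p of all 4 was 1.

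**Figure D2:**
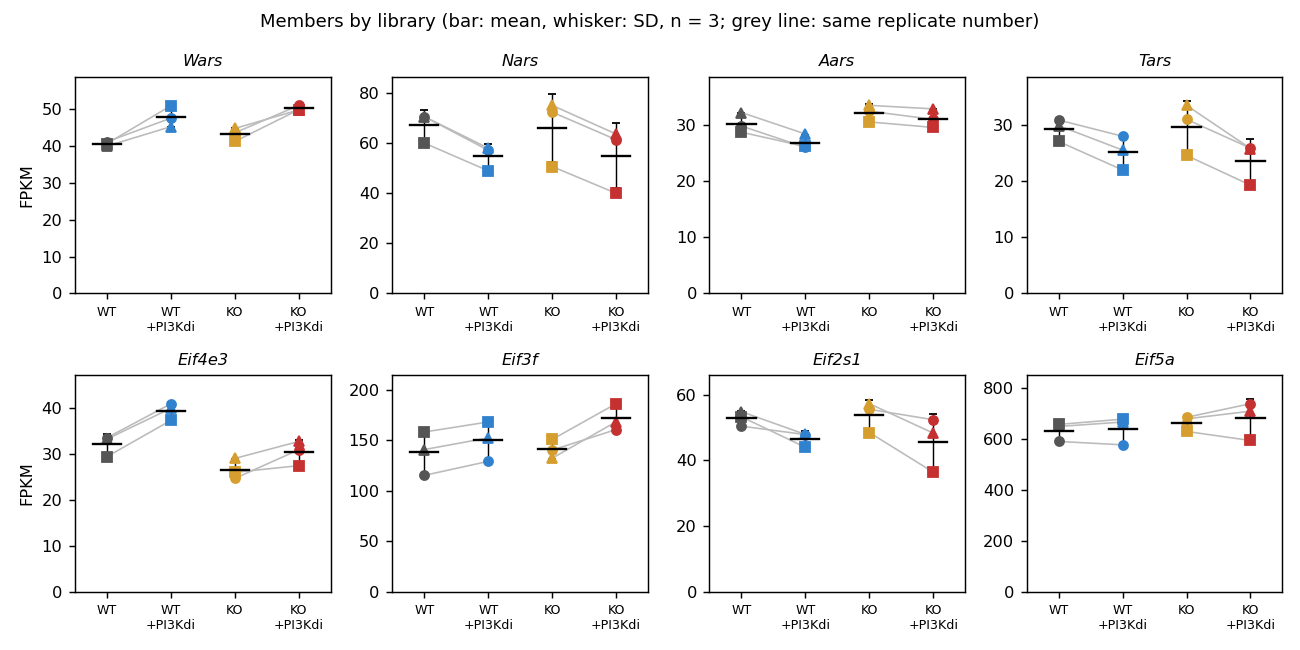
FPKM of 8 members in each of the 12 libraries, with marker shape for replicate number (circle 1, triangle 2, square 3), grey lines joining libraries of the same number within a genotype, a black bar at the mean and a whisker of 1 SD (n = 3); KO is FOXO1-GFP KO. Lines slope down in all 6 pairs for Nars, Aars, Tars and Eif2s1 and up in all 6 for Wars, Eif4e3 and Eif3f, while the pairs themselves sit at different heights.

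In FOXO1-GFP KO CTL the same inhibitor contrast again called 0 of 88 members in the unblocked limma fit (0.0452% of all genes), with 2 (Rars2 and Wars) at an unadjusted p under 0.05 against 5.17% of genes, and voom gave 0 and 2. In the blocked fit 0 were called (2.79% of all genes), and 11 members (12.5%) passed at any size against 1339 genes or 10.1%. Of these 11, 4 were higher (6.02% of all genes were) and 7 lower (4.06%), and 28 members had an unadjusted p under 0.05 against 29.5% of genes. The 95% intervals of 82 members lay within 1.5-fold in the blocked fit, against 79.4% of all genes. Of genes averaging 1 FPKM or more, 86.9% did.

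Those that rose were Wars, Eif4e3 and the eIF3 subunit genes Eif3f and Eif3k. Wars was at 43.61, 44.79 and 41.27 FPKM in FOXO1-GFP KO and 51.06, 49.84 and 49.9 FPKM in FOXO1-GFP KO+PI3Kdi. The groups did not overlap, and Wars rose by 0.22 ± 0.04 (log2, SE; adjusted p = 0.0106 blocked, 0.755 unblocked). Eif3f was at 140.29, 132.25 and 150.83 FPKM without and 160.65, 168.34 and 186.24 FPKM with the inhibitor, without overlap, a rise of 0.28 ± 0.06 (adjusted p = 0.0137 blocked). Eif3k rose by 0.28 ± 0.07 (adjusted p = 0.0328) and Eif4e3 by 0.19 ± 0.05 (adjusted p = 0.0413), both in the blocked fit, with overlapping groups but all 3 pairs higher. The promoters of Eif3f and Eif3k shown above both hold the E-box, beginning at -68 and -44 from the gene start. The E-box is not particular to genes that rose. It was also in the promoters of Aars (-146), Farsb (-39), Iars (-69) and Eif4h (-96), which were lower with the inhibitor in every pair of both genotypes.

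Those that fell in FOXO1-GFP KO CTL were the synthetase genes Tars (threonine), Nars, Farsb (the β subunit for phenylalanine) and Rars2 (mitochondrial arginine), and the initiation factors Eif4g2, Eif2s1 and Eif5. Tars was at 31.05, 33.54 and 24.61 FPKM without and 25.9, 25.84 and 19.3 FPKM with the inhibitor. Each pair was lower but the groups overlapped because replicate 3 was low in both, and Tars fell by 0.33 (SE 0.06, adjusted p = 0.01 blocked, 0.933 unblocked). Rars2 was at 10.27, 11.74 and 9.51 against 9.06, 8.79 and 7.4 FPKM, without overlap, and fell by 0.32 (adjusted p = 0.0162 blocked). Eif4g2, a scaffold relative of eIF4G that lacks the eIF4E site, fell by 0.29 (adjusted p = 0.0402), and Nars fell by 0.27 (adjusted p = 0.041). Eif2s1, the eIF2 subunit that stress kinases phosphorylate, fell by 0.25 (adjusted p = 0.0398), and Eif5, the GTPase activator of eIF2, by 0.24 (adjusted p = 0.0287). Farsb fell by 0.25 (adjusted p = 0.0404), all from the blocked fit.

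The members that passed differed in how far they rested on single libraries. Over the 12 blocked fits that each left out 1 library, Eif4e3 passed in 12 in WT CTL, Wars in 11 in WT CTL and in 11 in FOXO1-GFP KO CTL, and Tars in 10 in FOXO1-GFP KO CTL. Nars passed in 6 in WT CTL and 3 in FOXO1-GFP KO CTL, and Aars and Cars in 6 and Yars in 7 in WT CTL. Eif4e3 passed in 4 of 12 in FOXO1-GFP KO CTL, where Eif3f and Rars2 passed in 9, Eif3k and Eif5 in 7, Eif2s1 in 6, Eif4g2 in 4 and Farsb in 3. Of the 12 libraries left out, 6 are of the other genotype and enter a response only through the shared estimate of the spread. A count of 6 or fewer can therefore come from those fits alone, with none from leaving out a library of the contrast. Without the 3 libraries high in Rn7sk, which leaves 1 WT pair intact, Wars alone of the 6 still passed in WT CTL (adjusted p = 0.0357), and the adjusted p of Eif4e3 was 0.0553. In FOXO1-GFP KO CTL 8 of the 11 passed under that choice. The other 3 were Eif3k (adjusted p = 0.0629), Nars (0.0772) and Eif4e3 (0.148).

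The members were also described by class. The 12 cytosolic synthetases that ATF4 is known to induce had a median log2 fold change of -0.16 in WT CTL, with 11 of 12 below 0 and Wars the exception, and of -0.12 in FOXO1-GFP KO CTL, with 10 of 12 below 0 (all but Wars and Sars). The 8 other cytosolic synthetases had medians of -0.08 and -0.12, and the 17 mitochondrial ones 0.01 and -0.05. All 13283 genes had medians of -0.04 and -0.02, and all 88 members -0.05 and -0.09. Of the cytosolic synthetases outside the ATF4 list, Farsb alone passed in either response, and Kars, Qars and Vars were above 0 in both.

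**Figure D3:**
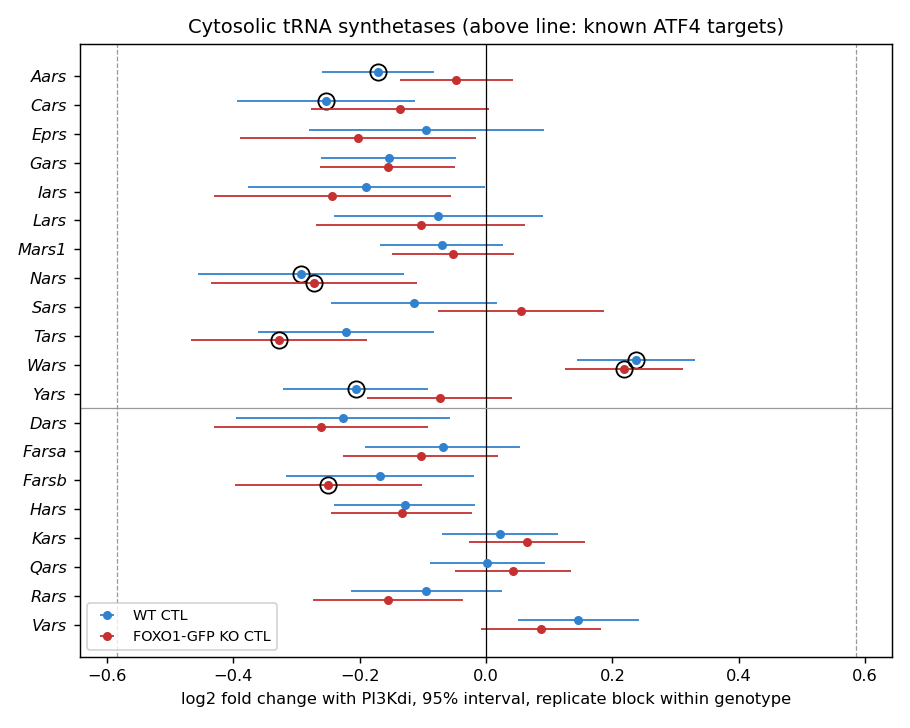
Log2 fold change with PI3Kdi of the 20 cytosolic synthetase genes in WT CTL (blue) and FOXO1-GFP KO CTL (red), with 95% intervals from the blocked fit, black rings where the adjusted p is under 0.05, and dashed lines at 1.5-fold. All intervals lie inside the dashed lines, and Wars is to the right of 0 in both genotypes while Nars is to the left in both.

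The eIF1 class was formed by symbol and held Eif1, Eif1a, Eif1ax, Eif1b and Eif1ad. Its genes were below 0 in 5 of 5 in WT CTL (median -0.15) and 3 of 5 in FOXO1-GFP KO CTL (median -0.00). The eIF2B genes were below 0 in 5 of 5 and 4 of 5 (both medians -0.10). None of these 10 passed. The eIF2 class, formed by symbol, held Eif2a and Eif2d beside the subunit genes Eif2s1, Eif2s2 and Eif2s3x. Its genes were below 0 in 4 of 5 in each genotype, with medians of -0.05 and -0.19, which are not those of the eIF2 subunits alone.

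Counting by pairs, more members were lower than higher. In WT CTL 38 of 88 members (43.2%) were lower with PI3Kdi in all 3 pairs against 29.5% of all genes, and 10 (11.4%) were higher in all 3 against 16.7%. In FOXO1-GFP KO CTL 35 (39.8%) were lower against 26.4%, and 13 (14.8%) higher against 23.1%. Over genes averaging 1 FPKM or more, as the members do, the lower shares were 32.3% in WT CTL and 29.0% in FOXO1-GFP KO CTL. The higher shares of those genes were 17.0% and 24.3%. Such shares were not counted for the 6 pairs together. In all 6 pairs, 23 members (26.1%) were lower against 13.98% of all genes, and 7 (7.95%) were higher against 9.20%. The 7 were Wars, Eif4e3, Vars, Kars and the eIF3 genes Eif3f, Eif3h and Eif3k, and the 23 were 13 cytosolic synthetases, Rars2, Eif2s1, Eif2s2, Eif2b4, Eif2b5, Eif4e, Eif4e2, Eif4g2, Eif4h and Eif5. By whole groups, 12 members did not overlap between WT and WT+PI3Kdi (13.6%, against 10.2% of all genes), 3 of them higher (4.43% of genes) and 9 lower (5.81%). In FOXO1-GFP KO CTL 7 did not overlap (7.95%, against 10.1%), 3 of them higher (5.28%) and 4 lower (4.8%).

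Among the eIF4F genes, Eif4e had values of 22.6, 23.45 and 22.53 FPKM in WT and 21.73, 20.69 and 16.83 FPKM in WT+PI3Kdi. The groups did not overlap, and its log2 fold change was -0.22 (95% interval -0.43 to -0.01, adjusted p = 0.197 blocked). Its repressor Eif4ebp1 was at 26.42, 38.01 and 37.65 FPKM in WT and 20.18, 32.52 and 31.8 FPKM in WT+PI3Kdi, each pair lower, with a log2 fold change of -0.28 (adjusted p = 0.058 blocked). In FOXO1-GFP KO cells Eif4ebp1 had -0.05 (adjusted p = 0.705 blocked). Eif4ebp2 had 0.15 and -0.01. Eif4a1, Eif4a2, Eif4b and Eif4g1 did not pass in either response, with log2 fold changes between -0.34 and 0.01. The most abundant member, Eif5a, had 0.02 and 0.03, with a blocked 95% interval in WT CTL from -0.12 to 0.15, and Eif6, which keeps ribosomal subunits apart, had -0.01 and -0.06.

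**Figure D4:**
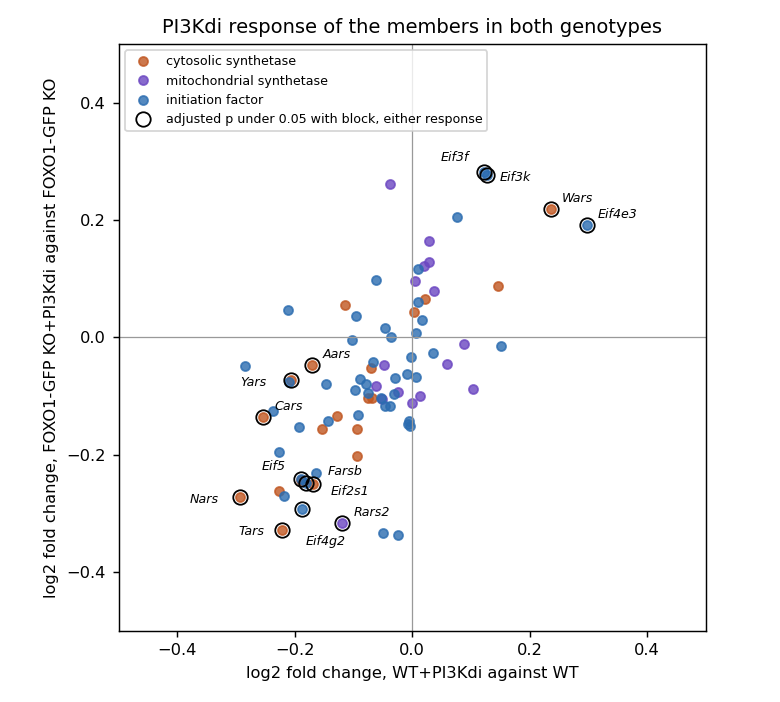
Log2 fold change with PI3Kdi in WT CTL (x axis) and in FOXO1-GFP KO CTL (y axis) for 83 members, leaving out the 4 pseudogenes and Lars2, which lies outside the axes; rings mark members with an adjusted p under 0.05 in the blocked fit in either genotype. Eif3f, Eif3k, Wars and Eif4e3 sit at the upper right and Nars, Tars, Eif5, Eif2s1, Farsb and Eif4g2 at the lower left.

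Whether the response differed with FOXO1 was asked with the difference of both responses. The unblocked limma fit called 0 members (0.0% of all genes), with 0 at an unadjusted p under 0.05 against 1.51% of genes, and voom gave 0 and 0. The blocked fit called 0 members (0.0226% of all genes) and passed 0 at any size (0.0376%), with 4 at an unadjusted p under 0.05 (Eif3m, Eif4a-ps4, Lars2 and Pars2) against 10.8% of genes, and its smallest adjusted p among members was 0.196. A gene that passed in one genotype and not in the other is therefore not shown to differ between them. The 95% intervals of the difference lay within 1.5-fold for 81 of 88 members in the blocked fit and for 57 in the unblocked fit, against 70.6% and 31.9% of all genes. Of genes averaging 1 FPKM or more, 82.6% and 40.0% did.

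The comparison of genotypes asked what loss of FOXO1 did to these genes. Without inhibitor, 0 members were called in the unblocked limma fit (0.331% of all genes), with 1 (Eif4e3) at an unadjusted p under 0.05 against 6.51% of genes, and voom gave 0 and 1. The blocked fit also called and passed 0 (0.233% of all genes). Groups did not overlap for 3 members, Ears2 and Wars, which were higher (3.54% of all genes were), and Eif4e3, which was lower (6.79%), in all 3.41% of members against 10.3% of genes. The median log2 fold change of the members was 0.06, with 68 of 88 above 0, against -0.01 over all genes. The eIF3 genes were above 0 in 12 of 13 and the eIF2B genes in 5 of 5, with medians of 0.05 and 0.09. The 95% intervals of 77 members lay within 1.5-fold, against 52.7% of all genes. Of genes averaging 1 FPKM or more, 62.5% did in the unblocked fit and 65.8% in the blocked fit.

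With PI3Kdi in both genotypes, 0 members were called (1.45% of all genes), with 3 (Aars, Eif4e3 and Pars2) at an unadjusted p under 0.05 against 10.2% of genes, and voom gave 0 and 3. The blocked fit called 0 (1.18% of all genes) and passed 0 (1.25%). Groups did not overlap for 10 members (11.4%, against 14.8% of all genes), 9 higher (6.85%) and 1 lower (7.9%). Eif4e3 was the single member that did not overlap between genotypes both with and without inhibitor. Its FOXO1-GFP KO values were 24.7, 29.06 and 26.03 FPKM, and its FOXO1-GFP KO+PI3Kdi values 30.96, 32.76 and 27.48 FPKM. Set against WT (29.45 to 33.57 FPKM) and WT+PI3Kdi (37.36 to 40.98 FPKM), the log2 fold change was -0.27 without inhibitor (adjusted p = 0.545) and -0.38 with it (adjusted p = 0.12), which did not pass. Pars2, the mitochondrial prolyl-tRNA synthetase, had the largest positive value with inhibitor, at 2.8, 2.55 and 3.15 FPKM in WT+PI3Kdi and 3.58, 4.17 and 4.63 FPKM in FOXO1-GFP KO+PI3Kdi (0.52 on the log2 scale, adjusted p = 0.15). These 5 comparisons share libraries, since each group enters more than 1 of them.

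Lars2, for the mitochondrial leucyl-tRNA synthetase (chr9:123366927-123462666, plus strand), moved by library rather than by group. It was at 51.89, 70.28 and 59.12 FPKM in WT, 173.13, 248.08 and 42.49 FPKM in WT+PI3Kdi, 321.16, 50.44 and 82.78 FPKM in FOXO1-GFP KO and 67.44, 59.23 and 95.15 FPKM in FOXO1-GFP KO+PI3Kdi. The 3 high libraries are those high in Rn7sk, and the highest was 7.56-fold above the lowest. The other 16 mitochondrial synthetases together made up 0.0197% to 0.0242% of a library's FPKM, and none of them had a mean above 10.6 FPKM. The genes whose log2 levels followed Lars2 most closely over the 12 libraries were Gm24187 (r = 0.996) and Gm15564 (r = 0.992), and Rn7sk (r = 0.913) and the 5.8S rRNA gene n-R5-8s1 (r = 0.913) were named after their values were seen. These 12 points are the same libraries for each gene, and the part of such RNA in the Lars2 values was not tested.

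**Figure D5:**
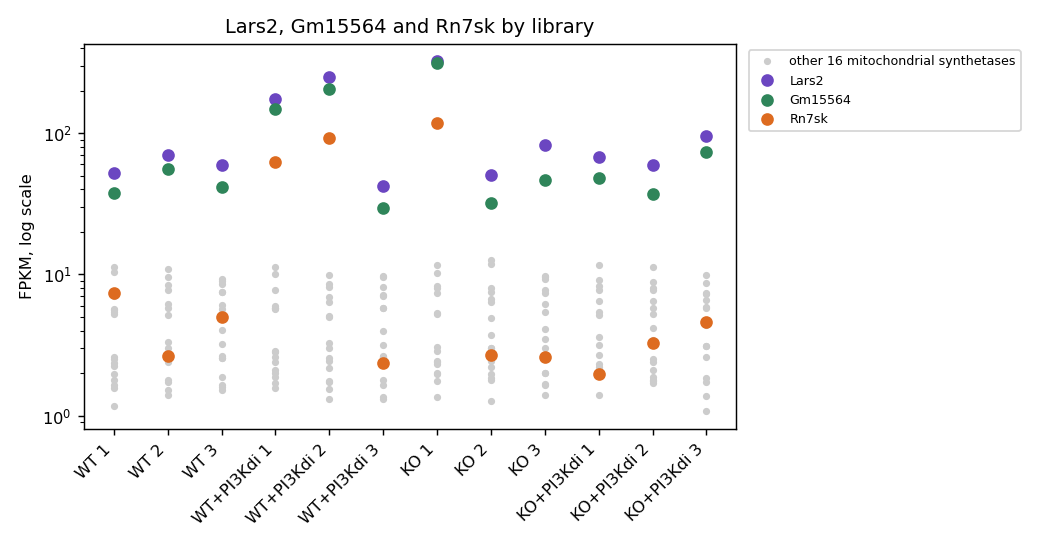
FPKM on a log axis of Lars2, the antisense gene Gm15564, the 7SK RNA gene Rn7sk and the other 16 mitochondrial synthetases (grey) in the 12 libraries; KO is FOXO1-GFP KO. Lars2, Gm15564 and Rn7sk are all highest in WT+PI3Kdi 1, WT+PI3Kdi 2 and KO 1, while no grey point is above 12.7 FPKM.

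The log2 fold change of Lars2 was 1.03 in WT CTL (SE 0.68, adjusted p = 1), and its value in FOXO1-GFP KO CTL was -0.61 (adjusted p = 0.933). Without the 3 libraries it was -0.50 and 0.16, so both directions turned, and neither passed. The pseudogenes held most of the other large values. Eif5al3-ps was at 1.34, 1.58 and 2.09 FPKM in WT and 0.59, 1.03 and 1.02 FPKM in WT+PI3Kdi, without overlap, with a log2 fold change of -0.87 (adjusted p = 0.115 blocked). Eif4a-ps4 had 0.31 in WT CTL and -0.37 in FOXO1-GFP KO CTL, and Eif1-ps1 0.24 and -0.57, none of which passed. Reads of a processed pseudogene and of its parent mRNA can be hard to tell apart, so these values are uncertain, as are those of members whose exons overlap a gene on the other strand if strand is lost, among them Hars with Hars2 and Mars1 with Ddit3.

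Other genes of the pathway were taken from lists. Of 14 regulators of initiation, Pdcd4, which holds eIF4A inactive, was called in both responses. It was at 14.57, 10.79 and 12.86 FPKM in WT and 26.81, 22.62 and 25.81 FPKM in WT+PI3Kdi, and at 8.31, 8.74 and 8.63 against 15.41, 15.67 and 17.4 FPKM in FOXO1-GFP KO CTL. All inhibitor libraries were above all vehicle libraries of their genotype, and Pdcd4 rose by 0.98 (adjusted p = 0.0103 unblocked) and 0.91 (adjusted p = 0.0286 unblocked). Under PI3Kdi the genotypes differed for Pdcd4 by -0.63 (log2, FOXO1-GFP KO minus WT, adjusted p = 0.0215 unblocked). In the blocked fit Paip2, an inhibitor of poly(A)-binding protein, and Mknk2, a kinase of eIF4E, rose in FOXO1-GFP KO CTL by 0.30 and 0.23 (adjusted p = 0.00854 and 0.0486), and the other 11 regulators passed in neither response.

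Of 24 amino acid response genes that ATF4 is known to induce, 23 were below 0 in WT CTL with PI3Kdi (median -0.21), and 4 fell in the blocked fit, beside 7976 of 13283 genes below 0 (median -0.04) and 3.53% that fell. No lowest level was set for this list. The 23 include Cth (mean 0.163 FPKM in WT and 0.087 in WT+PI3Kdi) and Slc7a11 (0.107 and 0.057), which were near the 0.1 FPKM added before the log. Pycr1, which makes proline, fell by 0.77 (adjusted p = 0.000897), asparagine synthetase (Asns) by 0.43 (0.014), Psat1 of serine synthesis by 0.29 (0.0256) and Pck2 by 0.28 (0.0469; adjusted p values). In the unblocked fit 0 of the 24 passed this comparison. Asns was at 39.22, 47.97 and 41.95 FPKM in WT and 28.49, 35.62 and 31.91 FPKM in WT+PI3Kdi, without overlap. In FOXO1-GFP KO CTL 17 of 24 were below 0 (median -0.08), beside 7092 of all genes (median -0.02). Psat1 fell by 0.31 (adjusted p = 0.0175 blocked) and Ddit4, a repressor of mTORC1, rose by 0.33 (adjusted p = 0.0129 blocked), where 4.06% of all genes fell and 6.02% rose. With inhibitor in both genotypes 21 of 24 were above 0 in FOXO1-GFP KO CTL (median 0.21), beside 6775 of all genes (median 0.01). Pycr1 and Atf5 were called in the unblocked fit (0.92 and 0.71, adjusted p = 0.045 and 0.0281) but not in the blocked fit (0.0588 and 0.0507). Neither the 10 elongation and release factors, the 3 synthetase complex scaffolds nor the 6 eIF2 kinases and phosphatase subunits passed in any of the 5 comparisons, in either fit.

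Markers of other cells moved with some of these groups. Of 12 B cell markers 3 were in the table (Cd79b, Ighm and Igkc), summing to 11.4 to 19.5 FPKM in WT genotype and 4.31 to 6.88 FPKM in FOXO1-GFP KO genotype. Of 12 myeloid markers 5 were in the table (Cd14, Cd68, Fcgr3, Itgam and Ly6g), summing to 77.0 to 104 FPKM in WT, 125 to 214 FPKM in WT+PI3Kdi, 49.8 to 62.1 FPKM in FOXO1-GFP KO and 64.5 to 77.0 FPKM in FOXO1-GFP KO+PI3Kdi. Most of that sum was Ly6g, at 59.2 to 185 FPKM in WT genotype, which the study lists among the mRNA that p110δ controls by way of FOXO1 in CTL. Itgam was at or below 0.16 FPKM in every library, and Lyz2, Csf1r, Adgre1, S100a8, S100a9, Mpo and Elane were not in the table. Of 4 CD4 markers 3 were present, at 4.96 to 8.24 FPKM in sum, and 0 of 6 erythroid markers. The part of such cells in the results was not tested, and in bulk RNA a change in the share of a cell type cannot be told apart from a change per cell.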

How the data were processed

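RNA sequencing was analysed in 12 libraries (4 groups of 3), grouped by the labels. Per the study's methods and the labels, 300 ng of RNA went into stranded poly(A) libraries, read as 75 bp pairs, aligned with STAR 2.7.1a to GRCm38.p6 and counted per Ensembl gene. The authors removed low genes, scaled libraries by TMM and deposited FPKM with 2 decimals for 13283 genes.

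Here log2(FPKM + 0.1) of all genes was fitted with limma 3.58.1 (R 4.3.3; 4 group means, trended variance), adjusted by Benjamini-Hochberg over all genes. Called means an adjusted p under 0.05 and over 1.5-fold. The blocked fit adds the replicate pair within genotype as a block (consensus correlation 0.757). The numbers pair libraries within each genotype (correlation of deviations 0.594 to 0.838) but not across genotypes (-0.409 to 0.730). Reads were estimated from the steps of FPKM: 98.3% to 99.6% of held-out values were whole within 0.2 of a read, and limma voom was run on them, with the recovered or TMM-scaled library sizes, as an alternative. Estimated depth was 12900000 to 48000000 reads. Fold changes on this scale understate low genes.

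On simulated data of 13283 genes with 200 genes changed 2-fold in WT CTL, the unblocked fit recovered 74% and the blocked fit 97.5%. The simulation was given a pair correlation near the 0.757 fitted here, which favours the block. Its changes were also larger than those of the members that passed. These shares therefore do not measure how often changes of the members' size would be found. The labels call the replicates biological, and how many mice each came from is not given in the sources used here, so p values measure the spread between these libraries. Exon lengths and coordinates are from GENCODE M21 (GRCm38). The members, roles and gene lists were chosen with earlier results of these data known. Members named with values were those fixed by role, those called, and in each comparison the 3 highest and 3 lowest; Cars, Yars, Tars, Rars2, Farsb and Eif4g2 were named after their values were seen.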

Additional observations from a re-analysis of the deposited data

How the results depend on the processing

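The count of members called was 0 in all 5 comparisons and stayed 0 under another pseudocount (1 or 0.01 FPKM), a filter at a mean of 1 FPKM, median-centred libraries, voom, the groups of a comparison alone, leaving out each library, leaving out the 3 libraries high in Rn7sk (chosen after seeing the data) and each replicate block. With the replicate block and 1 library left out (added after seeing the data) it was 0 to 1 for the inhibitor response in WT CTL. The 1 was the pseudogene Eif5al3-ps, without FOXO1-GFP KO 1, FOXO1-GFP KO 3 or FOXO1-GFP KO+PI3Kdi 1. The number of members that passed at any size depended on the block. In WT CTL it was 6 with the replicate block within genotype, 0 with no replicate block, 12 with the block as fixed terms, 0 with the block on the number shared by all groups, 7 with voom and the block on the recovered library sizes, 3 with TMM library sizes (added after seeing the data), and 1 without the 3 libraries high in Rn7sk. Leaving out 1 library it was 1 to 8, and 1 to 3 without any 1 of the 6 libraries of WT genotype. In FOXO1-GFP KO CTL it was 11 with the replicate block, 0 without it, 17 with fixed terms, 0 on the shared number, 13 with voom, 12 with TMM library sizes and 9 without the 3 libraries. Leaving out 1 library it was 1 to 14, and 1 to 7 without any library of FOXO1-GFP KO genotype but FOXO1-GFP KO+PI3Kdi 1, or without WT 1, WT 2 or WT+PI3Kdi 2. Between genotypes with PI3Kdi it was 0, and 2 with the block on the shared number. The replicate block changed no other count. The causes were not tested. Of the named members' values under alternatives, 4529 kept their side of the threshold and moved by less than the spread between replicates, 77 passed with a block alone, and 30 moved by more. Median centring shifted no comparison by more than 0.03 (log2). With 3 libraries a group, unblocked 95% intervals reached a median of 0.29 (log2) either side of a member's value.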
